A study of Mus musculus with 12 samples.

Results

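The 10 circadian clock genes *Clock*, *Arntl*, *Npas2*, *Per1*, *Per2*, *Per3*, *Cry1*, *Nr1d1*, *Nr1d2* and *Dbp* were taken by gene symbol from an RNA-seq table of 45777 genes, and each had 1 row. They were followed across 12 livers of male C57BL/6 mice aged 10 to 12 weeks, 3 in each of 4 groups: WT given vehicle, WT given acetaminophen (APAP), Gα12-/- (knockout of *Gna12*) given vehicle and Gα12-/- given APAP. Mice were fasted overnight before a single intraperitoneal overdose of APAP, which is converted to a reactive metabolite in pericentral hepatocytes and is a standard model of acute liver injury, and livers were taken hours later. The WT animals were age-matched littermates of the knockouts, and the knockout is in the whole animal. The hour of the day at which livers were taken is not given in the sources used here, so a change after APAP and a difference in sampling hour between groups cannot be told apart for genes that cycle over the day.

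The circadian clock is a feedback loop of transcription that runs in nearly every cell and, in the liver, times metabolism to feeding. ARNTL (also called BMAL1) pairs with CLOCK or its relative NPAS2 and drives genes that carry E-boxes, among them the *Per* and *Cry* genes, *Nr1d1*, *Nr1d2* and *Dbp*. The PER and CRY proteins then block that pair, while the nuclear receptors NR1D1 and NR1D2 (REV-ERB alpha and beta) repress *Arntl*, *Npas2* and *Cry1* through ROR elements (ROREs), so that *Arntl* and *Dbp* normally peak at opposite times of day. DBP activates genes through D-boxes. *Per1* also responds quickly to hormones and stress signals.

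RefSeq promoter windows of 250 bases before to 50 after a transcription start (GRCm38.p6) were matched for 9 of the 10 members, all but *Per2*, and held 13 windows, since *Clock*, *Arntl* and *Per1* have several starts. The letters searched on both strands were the E-box CACGTG, the related E'-box CACGTT, the D-box TTATGTAA or TTACGTAA, the RORE core TAGGTCA or TGGGTCA, and the cyclic AMP element TGACGTCA, and none of these overlapped another in a member's window. The windows of 5 members held at least 1 match to these letters and are shown, with matches in capitals and all other bases in lower case.
Arntl, chr7:113207261-113207560, plus strand: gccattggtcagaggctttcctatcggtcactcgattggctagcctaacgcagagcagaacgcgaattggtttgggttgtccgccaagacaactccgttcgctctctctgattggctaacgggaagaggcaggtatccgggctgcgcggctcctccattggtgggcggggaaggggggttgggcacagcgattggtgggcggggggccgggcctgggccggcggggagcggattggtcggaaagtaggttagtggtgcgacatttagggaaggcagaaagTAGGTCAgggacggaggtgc
Nr1d1, chr11:98775328-98775627, minus strand: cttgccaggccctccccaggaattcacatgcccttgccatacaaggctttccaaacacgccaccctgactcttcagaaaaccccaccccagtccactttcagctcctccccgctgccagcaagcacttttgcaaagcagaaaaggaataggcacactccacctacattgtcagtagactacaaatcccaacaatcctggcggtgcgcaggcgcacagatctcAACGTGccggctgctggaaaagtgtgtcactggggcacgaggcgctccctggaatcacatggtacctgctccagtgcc
Per1, chr11:69098699-69098998, plus strand: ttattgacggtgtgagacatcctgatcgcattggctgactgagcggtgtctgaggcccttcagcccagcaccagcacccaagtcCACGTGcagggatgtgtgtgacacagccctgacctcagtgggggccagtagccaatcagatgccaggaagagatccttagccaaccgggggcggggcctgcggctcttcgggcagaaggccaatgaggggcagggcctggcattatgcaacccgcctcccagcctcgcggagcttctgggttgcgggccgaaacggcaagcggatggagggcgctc
Per3, chr4:151044616-151044915, minus strand: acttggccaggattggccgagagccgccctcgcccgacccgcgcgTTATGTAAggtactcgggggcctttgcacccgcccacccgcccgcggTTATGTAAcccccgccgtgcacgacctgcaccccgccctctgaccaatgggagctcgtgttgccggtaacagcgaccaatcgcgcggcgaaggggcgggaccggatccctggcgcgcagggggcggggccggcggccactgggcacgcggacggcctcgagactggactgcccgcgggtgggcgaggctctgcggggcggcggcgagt
Cry1, chr10:85185005-85185304, minus strand: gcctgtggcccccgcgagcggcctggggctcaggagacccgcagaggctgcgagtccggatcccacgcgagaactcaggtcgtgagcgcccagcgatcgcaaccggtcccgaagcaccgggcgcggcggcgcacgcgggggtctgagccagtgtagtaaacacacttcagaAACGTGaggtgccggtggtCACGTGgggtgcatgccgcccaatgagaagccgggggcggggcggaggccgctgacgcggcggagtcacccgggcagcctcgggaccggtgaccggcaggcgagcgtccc
The E-box was found in the windows of *Per1*, starting 166 bases before the transcription start, and *Cry1*, 60 bases before it, and in 7.15% of 32851 RefSeq windows. An E'-box lay 79 bases before the start of *Cry1* and 28 before that of *Nr1d1* (4.68% of all windows). *Per3* held 2 copies of the D-box, 205 and 158 bases before its start (1.06% of all windows), and *Arntl* held 1 RORE core, 30 bases after the start (6.45% of all windows). The cyclic AMP element was in 0 of the 13 member windows and in 1.79% of all windows. A match is a run of letters, and binding was not measured.

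Total counts ran from 49737950 to 69566079 per library, and levels between livers are given as CPM, the count scaled to the size of the library after TMM normalization. Hepatocyte markers were high in every liver, with *Alb* between 43080 and 99420 CPM. *Gna12*, the targeted gene, was at 43.3 to 67.2 CPM under the KO label and 23.3 to 66.7 CPM in WT, and did not differ in vehicle livers (log2 fold change 0.19, SE 0.24, adjusted p = 0.878) or after APAP (0.05, SE 0.30, adjusted p = 0.993). Counts were summed over the whole gene, so a deleted stretch could not be seen, and the groups are called livers labelled KO. The paper also assayed its WT and knockout mice by PCR of tail DNA, by qRT-PCR of *Gna12* in liver and by immunoblot of the protein. Those assays were not re-examined here. In 2 WT livers several of the clock genes stood apart from their group, and both are named with their values below: WT vehicle replicate 2, and WT APAP replicate 1, which also held 4653 CPM of *Hba-a1* (an erythroid gene) against at most 171 CPM in any other liver. WT APAP replicate 1 stood apart for *Arntl*, *Npas2* and *Cry1*. For *Dbp* and *Per3* it was WT APAP replicate 2 that lay apart from its group (36.2 and 22.2 CPM). All p-values below are from edgeR's quasi-likelihood test with Benjamini-Hochberg adjustment over all genes tested unless another test is named.

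After APAP the clock genes parted into a group that rose and a group that fell. Over all 12 livers, with the genotype label as a covariate, *Arntl*, *Npas2*, *Nr1d1*, *Clock* and *Nr1d2* rose, *Per2*, *Per3* and *Dbp* fell, and *Per1* and *Cry1* did not pass the test. Thus 5 of the 10 members were called higher, where 14.0% of 16509 genes were, and 3 were called lower, where 11.4% of genes were. The higher count fell to 3, without *Clock* and *Nr1d2*, in the fit without the filter, with limma, and when any 1 of WT vehicle replicate 3, WT APAP replicates 2 and 3, KO vehicle replicates 1, 2 and 3 and KO APAP replicate 2 was left out. The median log2 fold change of the members was 0.38, beside 0.01 for all genes tested. Levels of *Arntl*, *Npas2* and *Nr1d1* in the 6 APAP livers all lay above the 6 vehicle livers, where 7.06% of genes tested did so, and those of *Per2* and *Per3* all lay below, where 5.38% did. The share of all genes whose treatments did not overlap within 1 label was not computed. Such separation is given below as a description of the livers and not as support for a change. Under the KO label, 5804 of 15665 genes tested had an unadjusted p under 0.05. Bulk RNA does not tell apart fewer cells of a type and less RNA per cell.

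**Figure D1:**
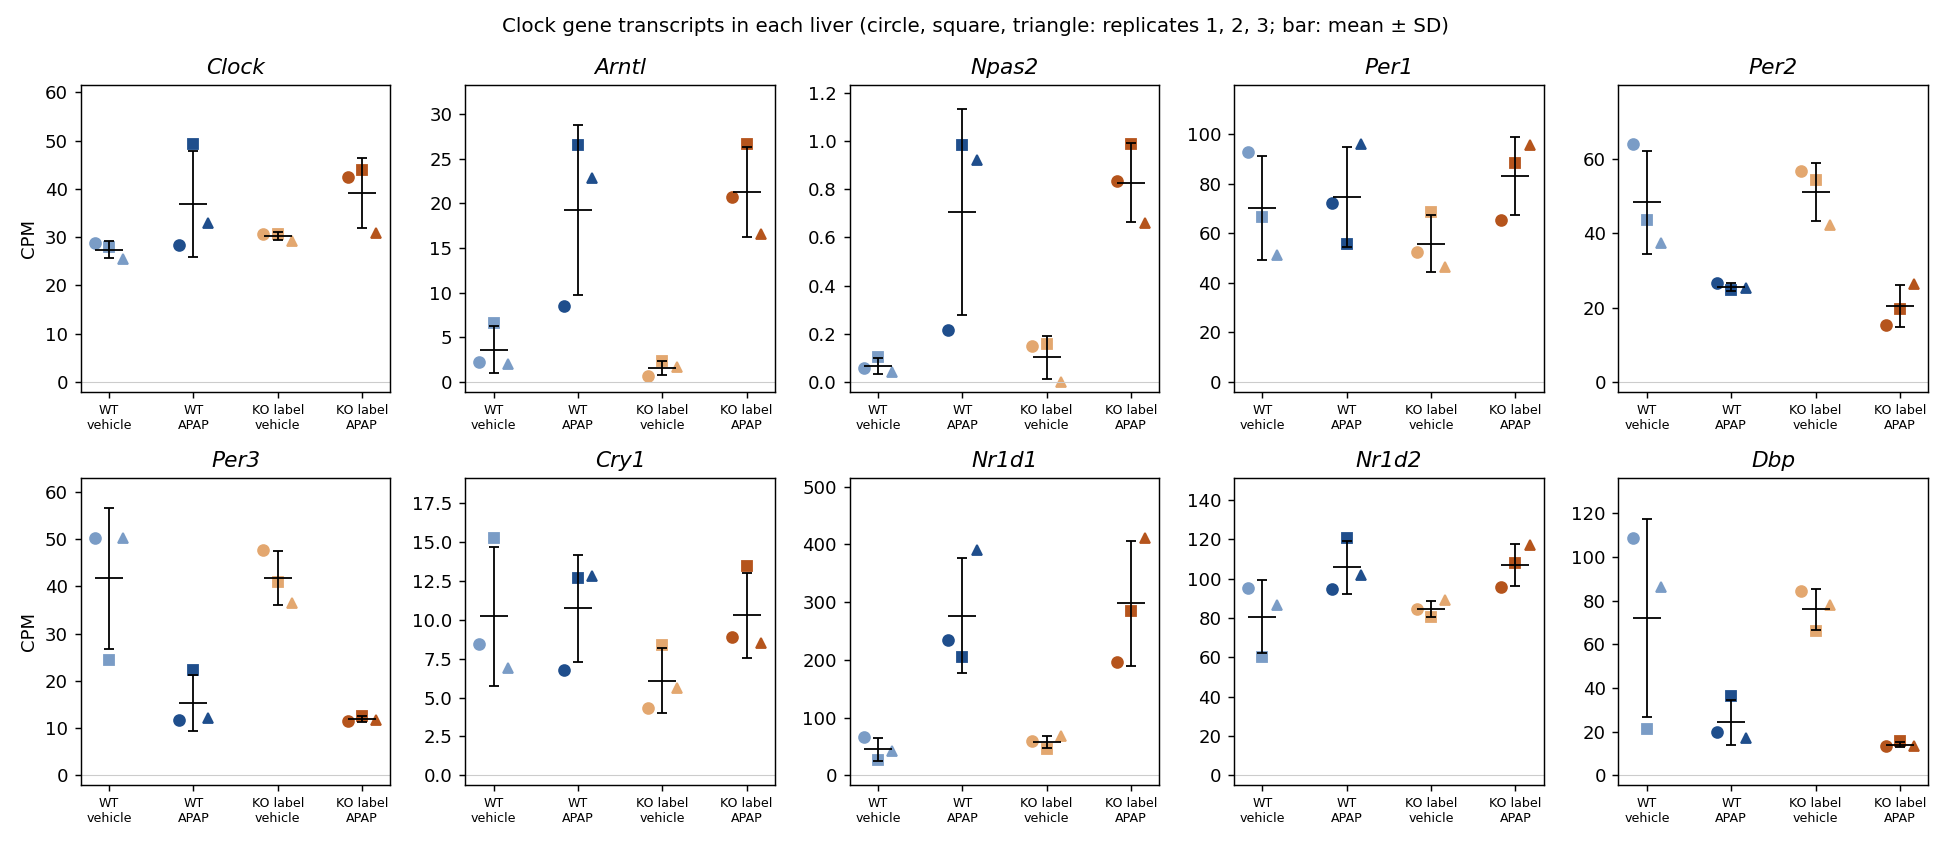
Level of each of the 10 clock genes in each of the 12 livers (y axis, CPM, linear and starting near 0; x axis, the 4 groups). Symbols mark replicates 1, 2 and 3, and the bar with whiskers is the mean ± SD of 3 livers. *Arntl*, *Npas2* and *Nr1d1* stand higher in every APAP liver than in any vehicle liver, *Per2* and *Per3* stand lower, and WT vehicle replicate 2 lies apart for *Dbp* (21.4 CPM).

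Among the activators, *Arntl* encodes the partner without which the clock stops. It was at 2.27, 6.66 and 2.00 CPM in the WT vehicle livers and at 8.50, 26.5 and 22.9 CPM in the WT APAP livers. Under the KO label it went from 0.722, 2.34 and 1.64 CPM with vehicle to 20.7, 26.6 and 16.6 CPM after APAP. The groups did not overlap under either label, and the closest values were the 6.66 CPM of WT vehicle replicate 2 and the 8.50 CPM of WT APAP replicate 1. *Arntl* rose 8.41-fold over all livers (log2 fold change 3.07, SE 0.44, adjusted p = 0.000382) and 13.8-fold under the KO label (3.79, SE 0.39, adjusted p = 0.000814). In the WT livers alone the log2 fold change was 2.41 (SE 0.58, adjusted p = 0.0832), and it passed the threshold without WT vehicle replicate 2 (3.17, adjusted p = 0.0437) and without both WT livers that stood apart, a setting added after the data were seen (3.52, adjusted p = 0.00368). The livers left out held the highest vehicle value and the lowest APAP value of *Arntl*, which favours a pass, so these fits are no separate test.

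*Npas2*, the stand-in for *Clock* in the forebrain and several peripheral tissues, was scarce. Its raw counts were 3, 5 and 2 in the WT vehicle livers, 11, 73 and 58 in the WT APAP livers, 9, 8 and 0 under the KO label with vehicle, and 48, 62 and 46 under that label after APAP. Every APAP liver was above every vehicle liver, and WT APAP replicate 1, with 11 counts, was the lowest of them. *Npas2* rose 8.84-fold over all livers (log2 fold change 3.14, SE 0.55, adjusted p = 0.00133) and 7.73-fold under the KO label (2.95, SE 0.68, adjusted p = 0.0184), a call lost without KO vehicle replicate 2 (adjusted p = 0.0534). It was too low for the filter of the WT comparison, where the unfiltered log2 fold change was 3.37 (SE 0.73, adjusted p = 0.0707).

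*Clock*, the histone acetyltransferase of the pair, changed little beside its partner. Its levels were 28.8, 28.0 and 25.4 CPM in WT vehicle livers and 28.3, 49.2 and 32.9 CPM in WT APAP livers. Under the KO label they were 30.6, 30.7 and 29.2 CPM with vehicle and 42.5, 44.0 and 30.8 CPM after APAP. The WT groups overlapped, because WT APAP replicate 1 lay within the vehicle range, and the groups labelled KO were separated by less than 1 CPM. Over all livers *Clock* rose 1.32-fold (log2 fold change 0.40, SE 0.13, adjusted p = 0.0422), and the call was lost without the filter on low counts (adjusted p = 0.0665), on the TPM scale (adjusted p = 0.140) and when any of 10 of the 12 livers was left out. Neither label alone passed the test, with log2 fold changes of 0.43 (SE 0.22, adjusted p = 0.348) in WT and 0.39 (SE 0.16, adjusted p = 0.1105) under the KO label.

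Among the repressors of the stabilising loop, *Nr1d1* had the highest level per length (TPM) of any member after APAP and the smallest adjusted p over all livers. It was at 65.8, 27.0 and 41.2 CPM in the WT vehicle livers and at 234, 205 and 390 CPM in the WT APAP livers. With the KO label it was at 59.1, 46.3 and 67.5 CPM and at 197, 285 and 412 CPM. The lowest APAP liver, at 197 CPM, stood well above the highest vehicle liver, at 67.5 CPM. *Nr1d1* rose 5.66-fold over all livers (log2 fold change 2.50, SE 0.26, adjusted p = 3.6e-05), 6.24-fold in WT (2.64, SE 0.40, adjusted p = 0.0224) and 5.20-fold under the KO label (2.38, SE 0.27, adjusted p = 0.00138). It was the 1 member of 9 tested that was called in the WT livers, where 1.62% of 15693 genes were called higher and 0.427% lower, and this call was lost without WT vehicle replicate 1 (adjusted p = 0.0541), WT vehicle replicate 3 (0.119) or WT APAP replicate 3 (0.0875). The 0 members called lower in WT by edgeR compare with 3 at an unadjusted p under 0.05, 3 by DESeq2 and 0 by limma.

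*Nr1d1* shares 263 of its 3077 exon bases with *Thra*, a thyroid hormone receptor gene on the opposite strand, and whether the counting used the strand is not stated in the sources used here, so the share of reads from each gene is uncertain. *Thra* was at 8.12 to 12.8 CPM in all 12 livers, below the lowest *Nr1d1* value, with a log2 fold change of -0.12 (SE 0.12, adjusted p = 0.515) after APAP. *Nr1d2*, the second REV-ERB, followed *Nr1d1* in direction but not in size. It was at 95.4, 59.9 and 86.5 CPM in WT vehicle livers and at 94.8, 121 and 102 CPM in WT APAP livers. In livers labelled KO it was at 84.4, 80.3 and 88.9 CPM and at 95.5, 108 and 117 CPM, and here the groups did not overlap. The 1.29-fold rise over all livers (log2 fold change 0.37, SE 0.12, adjusted p = 0.0373) was lost without the filter (adjusted p = 0.0648) and when any of 8 livers was left out, while WT (0.40, SE 0.22, adjusted p = 0.375) and the KO label alone (0.35, SE 0.12, adjusted p = 0.0731) did not pass.

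The 3 *Per* genes, which encode the repressors that bind CRY, did not move together. *Per1* was at 92.8, 66.5 and 51.3 CPM in WT vehicle livers and at 72.2, 55.7 and 95.8 CPM in WT APAP livers. With the KO label it was at 52.2, 68.5 and 46.5 CPM and at 65.2, 88.2 and 95.7 CPM. These groups overlapped under both labels, and the test was not passed over all livers (log2 fold change 0.33, SE 0.19, adjusted p = 0.222), in WT (0.10, SE 0.28, adjusted p = 0.882) or under the KO label (0.59, SE 0.19, adjusted p = 0.0574). The 95% interval over all livers ran from -0.07 to 0.74.

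*Per2*, in contrast, was at 63.9, 43.5 and 37.5 CPM in WT vehicle livers and within a narrow band of 26.7, 24.7 and 25.2 CPM in WT APAP livers. In livers labelled KO it was at 56.7, 54.4 and 42.1 CPM and at 15.3, 19.5 and 26.4 CPM. No APAP liver reached the lowest vehicle liver. *Per2* was 2.17-fold lower over all livers (log2 fold change -1.12, SE 0.17, adjusted p = 0.000468) and 2.48-fold lower under the KO label (-1.31, SE 0.21, adjusted p = 0.00458), and in WT the value was -0.90 (SE 0.22, adjusted p = 0.0882).

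*Per3*, the member of the family that the core loop can run without, was at 50.2, 24.5 and 50.3 CPM in WT vehicle livers and at 11.6, 22.2 and 12.2 CPM in WT APAP livers. In livers labelled KO it was at 47.8, 41.0 and 36.5 CPM and at 11.4, 12.5 and 11.8 CPM. The APAP livers labelled KO were close to each other, and the narrowest gap between treatments lay between replicates 2 of the WT groups. *Per3* was 3.08-fold lower over all livers (log2 fold change -1.62, SE 0.21, adjusted p = 0.000175) and 3.48-fold lower under the KO label (-1.80, SE 0.14, adjusted p = 0.00023), with -1.43 (SE 0.36, adjusted p = 0.0897) in WT.

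*Cry1*, the repressor that acts late in the cycle, was at 8.44, 15.3 and 6.91 CPM in WT vehicle livers and at 6.78, 12.7 and 12.8 CPM in WT APAP livers. With the KO label it was at 4.30, 8.36 and 5.62 CPM and at 8.89, 13.4 and 8.53 CPM. Its highest value of the 12 livers was in WT vehicle replicate 2, and the WT groups overlapped while those labelled KO did not. *Cry1* did not pass over all livers (log2 fold change 0.42, SE 0.26, adjusted p = 0.270), in WT (0.08, SE 0.36, adjusted p = 0.928) or under the KO label (0.77, SE 0.27, adjusted p = 0.0762). Without the 2 WT livers that stood apart, the log2 fold change over the other 10 was 0.75 (adjusted p = 0.00959). This setting was added after the data were seen. It left out the highest vehicle value and the lowest APAP value of *Cry1*, which favours a pass, so it is no separate test of the gene.

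*Dbp*, the output transcription factor whose own transcript swings widely over the day, was at 109, 21.4 and 86.1 CPM in WT vehicle livers and at 19.7, 36.2 and 17.1 CPM in WT APAP livers. Under the KO label it was at 84.6, 66.1 and 77.9 CPM and at 13.4, 15.5 and 13.3 CPM. The WT groups overlapped, because WT vehicle replicate 2 lay among the APAP livers, and the groups labelled KO were far apart. *Dbp* was 4.00-fold lower over all livers (log2 fold change -2.00, SE 0.34, adjusted p = 0.00117) and 5.37-fold lower under the KO label (-2.42, SE 0.15, adjusted p = 8.4e-05). In WT the value was -1.56 (SE 0.56, adjusted p = 0.200), and it passed without WT vehicle replicate 2 (-2.00, adjusted p = 0.0487). That liver held the lowest vehicle value of *Dbp*, which favours a pass, so this fit is no separate test. Without both WT livers that stood apart, a setting added after the data were seen, *Dbp* did not pass in WT (-1.88, adjusted p = 0.0550). *Dbp* shares 539 of its 2993 exon bases with *Sphk2* on the opposite strand, and its value is uncertain to that extent, with *Sphk2* at 29.4 to 54.7 CPM in the 12 livers and a log2 fold change of 0.02 (SE 0.15, adjusted p = 0.947).

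The count of *Dbp* divided by that of *Arntl*, compared between livers only, combined the opposite changes of these genes and is no separate test. It was 47.9, 3.21 and 43.1 in the WT vehicle livers, 117, 28.3 and 47.6 under the KO label with vehicle, 2.32, 1.37 and 0.748 in the WT APAP livers and 0.646, 0.583 and 0.804 in the APAP livers labelled KO. The vehicle and APAP livers did not overlap, and WT vehicle replicate 2 came nearest to the APAP livers. The same ratio of *Nr1d1* to *Nr1d2* ran from 0.452 to 0.759 in vehicle livers and from 1.70 to 3.83 in APAP livers.

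**Figure D2:**
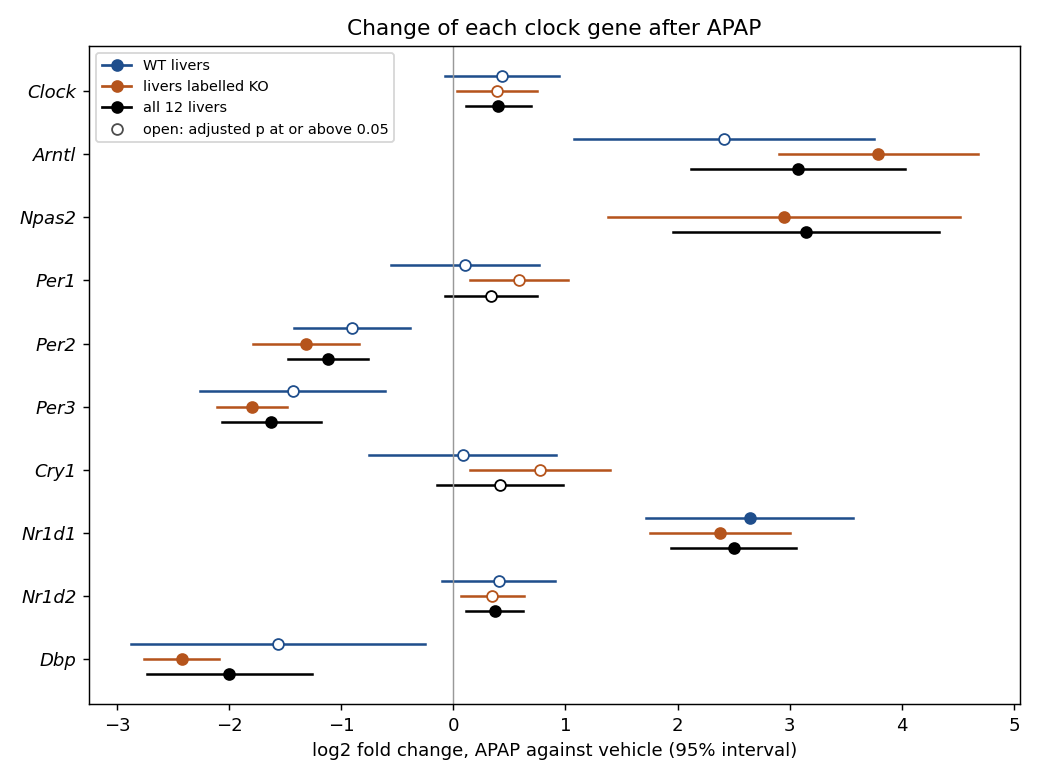
Log2 fold change after APAP of each clock gene (x axis, with its 95% interval) in WT livers, livers labelled KO and all 12 livers, with filled points for adjusted p under 0.05 and open points otherwise. *Nr1d1* is filled in all 3 comparisons, and *Npas2* has no WT point because it was too low to be tested there.

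Per length, as TPM, the order of the members differed between the treatments. Over the 6 vehicle livers *Dbp* came first at 72.7 ± 32.6 TPM (SD, n = 6), followed by *Nr1d1* at 30.1 ± 10.8, *Nr1d2* at 28.8 ± 6.37, *Per1* at 20.9 ± 6.84, *Per2* at 14.0 ± 4.44, *Per3* at 11.4 ± 3.72, *Clock* at 4.62 ± 0.822, *Cry1* at 4.26 ± 1.79, *Arntl* at 1.09 ± 1.19 and *Npas2* at 0.0317 ± 0.0264. Over the 6 APAP livers *Nr1d1* came first at 177 ± 70.6 TPM, followed by *Nr1d2* at 39.3 ± 10.2, *Per1* at 27.7 ± 8.37, *Dbp* at 19.6 ± 10.2, *Arntl* at 12.3 ± 5.19, *Per2* at 6.57 ± 1.50, *Clock* at 6.49 ± 2.33, *Cry1* at 6.04 ± 2.15, *Per3* at 3.93 ± 1.62 and *Npas2* at 0.333 ± 0.150. Neighbours that differed by less than the larger of their SDs were *Nr1d1* and *Nr1d2*, *Per2* and *Per3*, *Clock* and *Cry1*, and *Arntl* and *Npas2* in vehicle livers. In APAP livers they were *Per1*, *Dbp* and *Arntl*, and *Per2*, *Clock*, *Cry1* and *Per3*. *Arntl* thus stood below *Clock* with vehicle and above it after APAP on the TPM scale.

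The APAP changes under the 2 labels were compared directly by the interaction term, coded as the effect under the KO label minus that in WT. Under the KO label 3 members were called higher, where 13.0% of 15665 genes were, and 3 lower, where 9.60% were. The interaction called 0 of the 10 members (0% of 16509 genes in either direction), 0 members had an unadjusted p under 0.05, and DESeq2 and limma called 0 members as well. The difference for *Arntl* was 1.37 with a 95% interval from -0.28 to 3.01, and for *Dbp* -0.87 from -2.25 to 0.52. Those of *Cry1* (0.68, from -0.40 to 1.77), *Per1* (0.48, from -0.32 to 1.28), *Per2* (-0.41, from -1.11 to 0.29) and *Per3* (-0.37, from -1.25 to 0.51) also spanned 0. *Nr1d1* (-0.26, from -1.36 to 0.83), *Clock* (-0.05, from -0.65 to 0.55), *Nr1d2* (-0.06, from -0.59 to 0.48) and *Npas2* (-0.42, from -2.83 to 1.98) were nearest to 0 or least precise. Without the 2 WT livers that stood apart, a setting added after the data were seen, the difference for *Arntl* was 0.27. Those livers held the highest vehicle value and the lowest APAP value of *Arntl*. Leaving them out favours a smaller difference, so this fit is no separate test.

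Between the labels within a treatment, edgeR called 0 of 9 members tested in vehicle livers (0.0131% of 15262 genes higher and 0.0131% lower) and 0 of 10 after APAP (0.0185% of 16174 genes higher and 0.0124% lower), and DESeq2 and limma called 0 members in each. In vehicle livers 0 members had an unadjusted p under 0.05, and the 3 smallest were *Cry1* (log2 fold change -0.75, SE 0.35, adjusted p = 0.680), *Arntl* (-1.22, SE 0.57, adjusted p = 0.680) and *Per1* (-0.33, SE 0.24, adjusted p = 0.772), with the other members between 0.003 and 0.37. After APAP 1 member, *Dbp*, had an unadjusted p under 0.05, and its 3 livers labelled KO all lay below the 3 WT livers (log2 fold change -0.80, SE 0.28, adjusted p = 0.958), as did those of 3.96% of genes tested, while 4.58% lay above. *Clock* in vehicle livers was the other member whose labels did not overlap, with the KO label above WT (0.14, SE 0.11, adjusted p = 0.792), as for 7.42% of genes, while 6.62% lay below. After APAP all 5 erythroid and all 5 neutrophil markers tested also had negative values between labels, each with an unadjusted p under 0.05 and 0 passing the adjusted test. The summed erythroid level was 17080 CPM in WT APAP replicate 1. In WT APAP replicates 2 and 3 it was 381 and 334 CPM, within the 252 to 456 CPM of the APAP livers labelled KO. The part of both cell types in the value of *Dbp* was not tested. *Per3* (-0.38, SE 0.26) and *Per2* (-0.34, SE 0.21) followed with the same adjusted p of 0.958, and the other members lay between -0.07 and 0.22.

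Livers of the same group also differed in their clock genes, and 5 pairs of members were compared by the deviation of each liver's log2 CPM from its group mean, with an exact two-sided permutation test over all rearrangements of livers within groups and adjustment over the 5 pairs. *Dbp* and *Per3* gave the highest value (Pearson r = 0.92, exact permutation p = 0.0340, adjusted 0.0849, Spearman rho = 0.91, p = 0.0378, adjusted 0.0945, n = 12 livers), with r = 0.92 without the 2 livers farthest from the median. *Per1* and *Per2* gave r = 0.74 (exact permutation p = 0.0170, adjusted 0.0849, rho = 0.76, p = 0.0162, adjusted 0.0810) and r = 0.75 without the farthest 2. Neither passed after adjustment. The pair *Nr1d1* and *Nr1d2* gave r = 0.64 (exact permutation p = 0.131, adjusted 0.219, rho = 0.59, p = 0.148, adjusted 0.247), which dropped to 0.30 without the farthest 2.

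The 2 pairs of opposite phase had negative values that did not pass. *Arntl* and *Dbp* gave r = -0.46 (exact permutation p = 0.255, adjusted 0.319, rho = -0.35, p = 0.410, adjusted 0.410), and -0.66 without the farthest 2, but 0.18 when WT vehicle replicate 2 was left out, so that the direction rests on that liver. *Arntl* and *Nr1d1* gave r = -0.37 (exact permutation p = 0.337, adjusted 0.337, rho = -0.38, p = 0.333, adjusted 0.410), and -0.57 without the farthest 2. Of the 10912 genes that averaged 1 or more in log2 CPM, the 5 whose deviations were most like those of *Arntl* over the 12 livers were *Cry1* (r = 0.96), *Dus3l* (0.93), *Ecsit* (0.92), *Ddx20* (0.91) and *Rps6kb1* (0.91). The 5 most like *Dbp* were *Fbxo21* (0.98), *Tmem131l* (0.96), *Bcar3* (0.96), *B930025P03Rik* (0.96) and *Atxn7l1* (0.96), with *Per3* (0.92) at rank 22 and *Nr1d2* (0.91) at rank 38. These likenesses are a description, and the points share library and depth. *Arntl* and *Cry1* both had their highest vehicle value in WT vehicle replicate 2 and their lowest APAP value in WT APAP replicate 1. Their r without those livers was not computed.

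**Figure D3:**
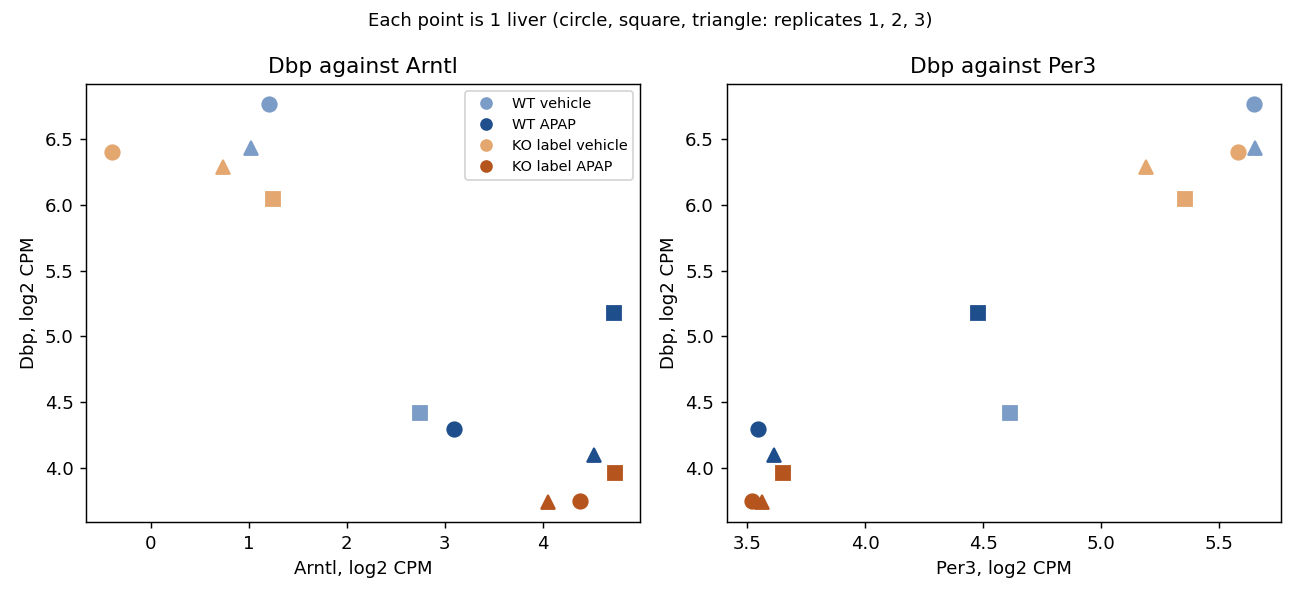
Level of *Dbp* (y axis, log2 CPM) against that of *Arntl* (left) and *Per3* (right) in each of the 12 livers, colored by group with symbols for replicates 1, 2 and 3. Of the 6 vehicle livers, 5 sit at high *Dbp* and low *Arntl*, WT vehicle replicate 2 lies among the APAP livers for *Dbp*, and the points of *Dbp* and *Per3* lie along the diagonal.

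Around the 10 members, 3 lists of clock genes were examined over all livers. Of 10 further repressors and stabilising-loop genes, 2 rose and 3 fell (median log2 fold change 0.20). *Rora*, an activator that competes with REV-ERBs at ROREs, rose from 59.8 ± 6.40 to 105 ± 18.8 CPM (SD, n = 6 vehicle and 6 APAP livers, log2 fold change 0.82, SE 0.12, adjusted p = 0.00043). The D-box factors *Tef* (-1.05, SE 0.18, adjusted p = 0.0013) and *Hlf* (-0.99, SE 0.20, adjusted p = 0.00293) fell as *Dbp* did. *Nfil3*, the repressor that competes with them at D-boxes and was named after its value was seen, rose (1.83, SE 0.48, adjusted p = 0.0134). It went from 26.7 ± 34.2 to 76.7 ± 11.9 CPM, but the treatments overlapped. The highest value of any liver, 96.0 CPM, was in WT vehicle replicate 2, which stood apart for other clock genes too. The other vehicle livers were at or below 19.1 CPM, and the APAP livers ran from 61.7 to 93.4 CPM.

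Of 12 genes for turnover and phosphorylation of clock proteins, 5 rose and 1 fell (median log2 fold change 0.17). *Siah2*, a ubiquitin ligase that targets NR1D1, rose from 10.7 ± 0.760 to 20.0 ± 1.36 CPM (log2 fold change 0.90, SE 0.09, adjusted p = 2.18e-05). Its treatments did not overlap, and 7.06% of genes tested lay wholly above after APAP. *Csnk1e*, a kinase of PER proteins, rose (0.65, SE 0.15, adjusted p = 0.00632), as did *Fbxw7*, a ubiquitin ligase subunit (0.49, SE 0.13, adjusted p = 0.013), and *Btrc*, the subunit that recognises phosphorylated PER, fell (-0.54, SE 0.12, adjusted p = 0.00521).

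Of 12 rhythmic output genes of the liver, 3 rose and 4 fell (median log2 fold change -0.33). *Usp2*, a deubiquitinase, fell from 61.6 ± 19.8 to 10.4 ± 4.58 CPM (log2 fold change -2.56, SE 0.34, adjusted p = 0.000237) and *Nampt*, the enzyme that limits NAD+ salvage, from 97.8 ± 21.7 to 49.7 ± 5.60 CPM (-0.96, SE 0.13, adjusted p = 0.000264). *Lonrf3*, a ring-finger gene, rose from 7.99 ± 3.99 to 47.8 ± 19.6 CPM (2.73, SE 0.34, adjusted p = 0.000143) and *Elovl3*, a fatty acid elongase, from 52.9 ± 19.8 to 203 ± 49.3 CPM (1.95, SE 0.26, adjusted p = 0.000231). These 4 genes were named for the smallest unadjusted p of their list in this comparison. They did not overlap between the vehicle and APAP livers, which their selection favours. Of all genes tested, 7.06% lay wholly above after APAP and 5.38% wholly below. Both directions were thus present in each list, beside 14.0% higher and 11.4% lower of all genes.

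**Figure D4:**
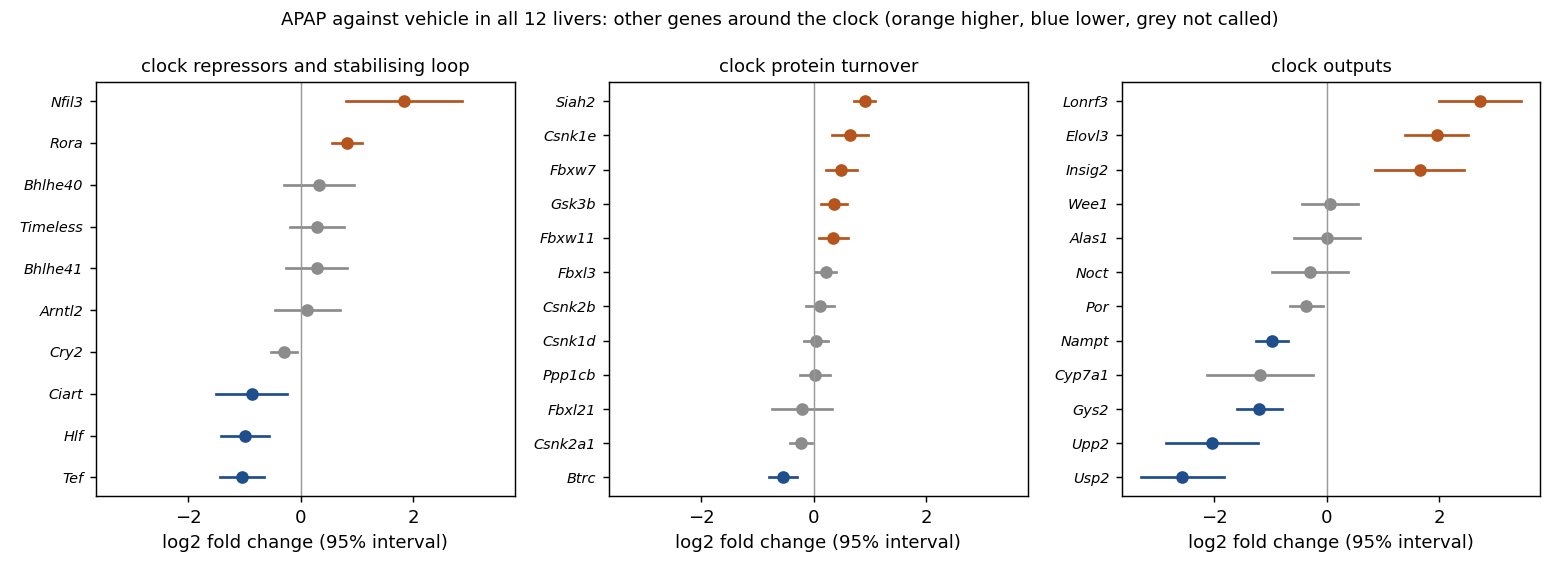
Log2 fold change after APAP over all 12 livers (x axis, with its 95% interval) of the genes in 3 lists around the clock, sorted by value, in orange where called higher, blue where called lower and grey where not called. *Rora* and *Tef* lie on opposite sides of 0, as do *Lonrf3* and *Usp2*.

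Transcripts of other cell types moved with some of these livers. WT APAP replicate 1 held the highest summed level of the erythroid list (17080 CPM, against 252 to 749 CPM in the other 11 livers) and of 5 bile duct markers (73.7 CPM). It also held the highest sum of 6 neutrophil markers (123 CPM). That sum was 11.8 and 20.7 CPM in WT APAP replicates 2 and 3, and 1.10 to 18.0 CPM in vehicle and KO-labelled livers. The bile duct markers summed to 12.0 to 26.3 CPM with vehicle and 27.8 to 73.7 CPM after APAP, so that all APAP livers lay above all vehicle livers, and 2 of the 5, *Sox9* and *Epcam*, passed the test over all livers (log2 fold changes 3.20 and 0.82, adjusted p = 2.59e-05 and 0.0209), both higher after APAP. The sum follows mainly *Sox9*, with means of 2.67 CPM with vehicle and 23.5 CPM after APAP. The means of *Spp1* were 13.9 and 14.25 CPM, and under the KO label 17.5 and 10.6 CPM. The sum therefore does not speak for the list as a whole. WT vehicle replicate 2 had 18.0 CPM of neutrophil markers, the highest of the vehicle livers, and 348 CPM of erythroid ones, and its *Gna12* level of 34.8 CPM was the lowest of the vehicle livers. The neutrophil marker *Ly6g* was at 0 in 8 of the 12 livers. Kupffer cell markers summed to 80.3 to 183 CPM with vehicle and 66.3 to 166 CPM after APAP, sinusoidal endothelial markers to 122 to 159 and 122 to 198 CPM, stellate cell markers to 146 to 246 and 169 to 343 CPM, lymphocyte markers to 0.60 to 3.01 and 0.79 to 3.81 CPM, and hepatocyte markers to 66916 to 92952 and 74300 to 128672 CPM. The part of these cell types in the clock gene values was not tested.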

How the data were processed

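Liver RNA of 12 mice was sequenced as paired-end stranded poly-A libraries, 3 in each of 4 groups taken from the sample labels. The submitters' processing notes name FastQC 0.11.7, Trimmomatic 0.38, HISAT2 2.1.0, Bowtie2 2.3.4.1, StringTie 2.1.3b and mm10. The counts deposited by the authors are whole reads per gene without normalization, and the deposited TPM values are normalized for transcript length and depth. The FPKM columns that the authors deposited were not used. Of 45777 genes, 19370 had no count. Whether the counting used the strand is not stated.

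Counts were scaled by TMM, filtered with filterByExpr and tested with edgeR 4.0.16 (glmQLFit, glmQLFTest, R 4.3.3) on the whole table, with Benjamini-Hochberg adjustment and a threshold of 0.05. Pairwise comparisons used the 6 livers compared, and the APAP effect (label as covariate) and the interaction used all 12. Standard errors were derived from the F statistic. The fits were tested on simulated data. Alternatives were DESeq2 1.42.0, limma 3.58.1 on log2 TPM after quantile normalization, with a pseudocount of 1 or 0.1, DESeq2 size factors, edgeR's other quasi-likelihood method, no filter, a replicate block, all 12 livers in one fit, and each liver left out. Leaving out WT vehicle replicate 2 and WT APAP replicate 1 together was added after the data were seen. Pairs of genes were tested with scripts in Python 3.11.15. Replicates were separate livers, and no 2 libraries were identical. No batch is given in the labels.

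Members and gene lists were chosen with earlier results of these data known, and 1 gene of the repressor and stabilising-loop list is not reported here. All members are named in the APAP comparisons and the interaction, the 3 with the smallest unadjusted p in each genotype comparison, and at most 4 by the same measure from each other list. Promoter windows came from RefSeq (GRCm38.p6) and shared exon bases from GENCODE M21.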

Additional observations from a re-analysis of the deposited data

How the results depend on the processing

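Over all 12 livers, the directions of the 10 members were the same under every alternative run, and *Arntl*, *Npas2*, *Nr1d1*, *Per2*, *Per3* and *Dbp* passed under each. *Clock* and *Nr1d2* lie near the threshold: the members called higher numbered 3 without the filter and 3 with limma at either pseudocount, and 3 to 5 when 1 liver was left out. In WT livers the call of *Nr1d1* and the number of calls depended on the setting, and the cause was not tested. DESeq2 called 2 members higher and 3 lower there (1413 genes), 1 fit of all 12 livers called 3 higher and 2 lower (1523 genes), and leaving out both WT livers that stood apart gave 3 higher and 0 lower (631 genes). With 1 liver left out, 0 to 2 members were called higher and 0 to 1 lower (41 to 442 genes), and the log2 fold changes of *Per1* (-0.11 to 0.35) and *Cry1* (-0.15 to 0.49) changed sign. Under the KO label DESeq2 called 6 members higher, 1 fit of all livers called 2249 genes, and 1995 to 3368 genes were called with 1 liver left out. With 1 liver out, *Per1* passed without KO APAP replicate 1 (adjusted p = 0.0377), *Clock* without KO APAP replicate 3 (0.0283) and *Cry1* without KO vehicle replicate 2 (0.0448). Over the alternatives the adjusted p ran from 0.00041 to 0.26 for *Arntl*, 2.56e-09 to 0.119 for *Nr1d1* and 0.0379 to 0.497 for *Dbp* in WT, 0.000189 to 0.0534 for *Npas2* under the KO label, and 0.0149 to 0.167 for *Clock*, 0.0131 to 0.0891 for *Nr1d2* and 0.00959 to 0.491 for *Cry1* over all livers.

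The interaction called 0 members under every alternative. DESeq2 called 9 genes and the fits with 1 liver left out 0 to 2. Its value for *Npas2* turned to 0.085 and 0.38 with limma, for *Nr1d2* to 0.067 without both WT livers, and with 1 liver left out those of *Clock* (-0.18 to 0.19), *Nr1d1* (-0.66 to 0.066) and *Nr1d2* (-0.20 to 0.12) changed sign. Between labels, DESeq2 called 137 genes in vehicle livers and 29 after APAP, all 12 livers in 1 fit called 0 and 0, and fits with 1 liver left out called 0 to 16 and 1 to 7, with 0 members in each of these fits. Pearson r with 1 liver left out ran from -0.70 to 0.18 for *Arntl* and *Dbp*, 0.40 to 0.88 for *Nr1d1* and *Nr1d2*, 0.87 to 0.95 for *Dbp* and *Per3* and 0.62 to 0.87 for *Per1* and *Per2*; the last 2 pairs passed without KO vehicle replicate 2 (exact permutation, adjusted p = 0.0463) and *Nr1d1* and *Nr1d2* without WT APAP replicate 2 (0.0231).

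Same-numbered livers did not deviate together (correlations from -0.26 to 0.11), so no pairing by replicate number was seen. With 3 livers in each group, this check cannot exclude one. A replicate block left 0 members and 62 genes called in WT (*Nr1d1* 2.68, adjusted p = 0.0537), added *Cry1* under the KO label (0.79, adjusted p = 0.0255), removed *Nr1d2* over all livers (0.37, adjusted p = 0.0618), and called 0 genes in vehicle livers and 1 after APAP between labels. At a few counts per library, *Npas2* is limited by depth.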
